A study of Homo sapiens with 2 samples.

Results

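The genes described here are the transcriptional coactivators YAP1 and TAZ (gene symbol WWTR1), 2 of the DNA-binding TEAD factors through which they act, the LATS kinases that restrain them, the scaffold AMOTL2 and 3 widely used target genes, in SF-539 cells with and without knockdown of FKBP9. They were chosen by name from the 58735 genes of the deposited table. The list named 8 genes, and CTGF and CYR61, the names under which the file holds CCN2 and CCN1, were added, making 10 genes. All 10 were found, each under 1 gene identifier. The symbol TAZ in the file belongs to tafazzin, a mitochondrial enzyme, and was not used.

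SF-539 is a human GBM cell line. In both groups the cells had been infected with pGIPZ lentivirus and selected with puromycin as stable clones, and were at passages between 15 and 18. The shControl cells carried the control shRNA and the shFKBP9 cells an shRNA against FKBP9, a prolyl isomerase of the endoplasmic reticulum. RNA was sequenced from 1 library per group, so no difference between the groups has a replicate check, and none of them was tested. Whether a library came from 1 clone or from several, and which shRNA sequence it carried, is not given in the sources used here.

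YAP and TAZ do not bind DNA themselves. In the nucleus they join TEAD factors on enhancers and promoters of genes for growth, adhesion and the cytoskeleton, among them the secreted matricellular proteins CTGF and CYR61. In the Hippo cascade, MST kinases act on LATS kinases. LATS kinases phosphorylate YAP and TAZ, which keeps them in the cytoplasm and marks them for degradation. Stiff matrix, cell spreading and actin tension favour the nuclear form, and in glioblastoma the pathway is known for its link to invasive, mesenchymal states. Phosphorylation and location are not seen in RNA, so the values below are mRNA levels alone.

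The short motif read by TEAD factors, GGAATG, which reads CATTCC on the other strand, can be seen in the promoters of some of these genes. RefSeq promoter windows on GRCh38.p14 were found for 7 of the 10 genes, as 10 windows, since some genes have more than 1 start. The set of windows used here had no entry for TEAD1, TEAD4 and CYR61, so their promoters were not examined. In the 250 bases before the start, at least 1 match lay in 4 of the 10 windows, compared with 11.9% of all 35116 windows. By gene this was 4 of 7, compared with 14.3% of all 27305 genes. Target genes of TEAD factors were put on the list by name, so these shares are not independent of the choice. The windows of CTGF, with 3 matches, of ANKRD1, with 2, and of 1 start of AMOTL2, with 1, are shown because these genes are targets whose levels behaved differently. Each is written 5′ to 3′ on the gene's own strand, with the motif in capitals.
CTGF, chr6:131951373-131951622, minus strand: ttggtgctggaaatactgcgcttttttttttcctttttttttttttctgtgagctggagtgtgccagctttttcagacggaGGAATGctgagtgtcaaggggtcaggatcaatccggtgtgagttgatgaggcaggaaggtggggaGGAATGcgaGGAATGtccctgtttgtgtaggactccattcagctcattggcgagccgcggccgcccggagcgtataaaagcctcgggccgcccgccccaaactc
ANKRD1, chr10:90921088-90921337, minus strand: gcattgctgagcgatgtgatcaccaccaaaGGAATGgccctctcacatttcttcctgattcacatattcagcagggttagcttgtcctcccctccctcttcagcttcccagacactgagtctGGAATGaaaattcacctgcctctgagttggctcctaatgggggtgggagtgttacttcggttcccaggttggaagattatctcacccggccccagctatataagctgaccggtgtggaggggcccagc
AMOTL2, chr3:134374448-134374697, minus strand: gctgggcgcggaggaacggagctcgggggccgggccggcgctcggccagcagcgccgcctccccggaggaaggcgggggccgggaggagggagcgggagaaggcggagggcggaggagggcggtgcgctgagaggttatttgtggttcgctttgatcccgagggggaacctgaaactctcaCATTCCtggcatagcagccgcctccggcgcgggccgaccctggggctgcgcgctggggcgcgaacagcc

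In CTGF the matches began 169, 104 and 95 bases before the start, all read as GGAATG on the gene's strand, and the last 2 of them lay close together. Windows with at least 3 matches made up 0.0826% of all windows, and those with at least 2 made up 0.940%. In ANKRD1 the matches began 220 and 128 bases before the RefSeq start. The gene boundary in the deposited file, 90921276, lies inside this window. In AMOTL2 the match was on the other strand, 69 bases before a start that lies inside the gene boundary of the deposited file, 134375479. The window of its other start had 0 matches. YAP1 itself had 1 match, 162 bases before its start, whereas the windows of WWTR1, LATS1 and LATS2 had 0. A match is a description of the letters and does not show that a factor was bound.

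**Figure D1:**
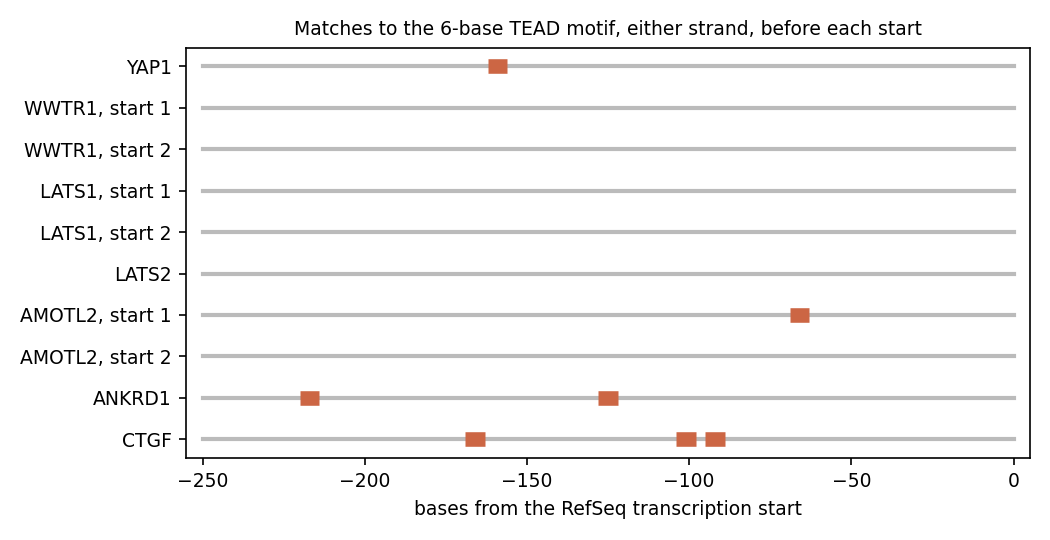
Positions of matches to the TEAD motif on either strand (orange blocks) in the 250 bases before each RefSeq start (grey lines), by gene and start, with the distance from the start in bases on the x axis. CTGF has 3 matches, ANKRD1 has 2, YAP1 and 1 start of AMOTL2 have 1 each.

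The authors deposited FPKM, the number of fragments per kilobase of gene length, scaled to the size of the library. Because each value times the gene length was a whole multiple of 1 step, the fragments on each gene could be recovered. They summed to 18116873 in shControl and 17158514 in shFKBP9. FKBP9 checked the labels, with 49.8 FPKM (4659 fragments) in shControl and 4.68 FPKM (415 fragments) in shFKBP9, a log2 ratio of -3.38. Glial and epithelial markers were sparse in these cells, which the labels call epithelial glioma cells. Of 7 glial markers 5 were under 1 FPKM in both libraries, with VIM the exception at 277 and 295 FPKM and NES at 2.36 and 2.17 FPKM, and of 5 epithelial markers 4 were under 1 FPKM. The 5 keratinocyte markers were all under 1 FPKM, but 4 of 5 were higher in shFKBP9, with KRT1 at 0 in both libraries. Of the 12741 genes with at least 1 FPKM, 46.7% were higher in shFKBP9. The summed level of the keratinocyte markers was 0.127 and 1.01 FPKM (9 and 51 fragments). With so few fragments, a single marker can be higher through counting error alone. The 5 blood markers summed to 5 and 4 fragments, with PTPRC and CD3E at 0, and the 3 endothelial markers summed to 17 and 22. The part of these genes in the results below was not tested.

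Differences are log2 ratios, shFKBP9 over shControl, taken after 0.1 was added to each FPKM value. Beside them stands an exact 95% interval from the fragments, called the counting interval, which was made without that addition and covers counting error only. Where stated, the median log2 ratio of genes in the same of 20 bins of transcript GC content (the GC bin median) was subtracted. In bulk RNA, fewer cells with a transcript and less of it per cell cannot be told apart.

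Of the 10 genes, 9 had at least 1 FPKM and ANKRD1 did not. The order of levels per length differed between the libraries mainly through CYR61. In shControl it ran TEAD1, YAP1, AMOTL2, TEAD4, CYR61, WWTR1, CTGF, LATS2, LATS1 and ANKRD1. In this order YAP1 and AMOTL2, TEAD4 and CYR61, and WWTR1 and CTGF were neighbours whose levels did not differ beyond counting error. In shFKBP9, CYR61 stood first at 15.1 FPKM, which did not differ beyond counting error from TEAD1 at 14.5 FPKM, and CTGF had moved above TEAD4 and WWTR1.

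**Figure D2:**
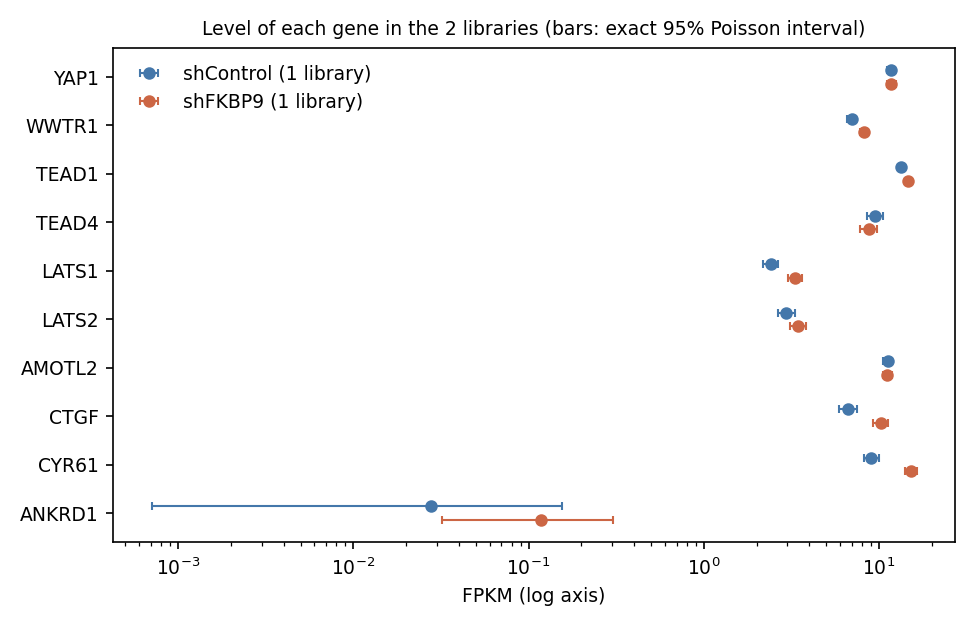
FPKM of each of the 10 genes (log axis) in the shControl library (blue) and the shFKBP9 library (orange), with exact 95% Poisson intervals from the fragments. For YAP1 and for AMOTL2 the points of the libraries nearly coincide, those of CTGF and CYR61 are set apart, and ANKRD1 is near the limit of detection in both libraries.

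The secreted targets CYR61 and CTGF showed the largest differences among the 9 genes with at least 1 FPKM. CYR61 (ENSG00000142871, chr1:85580761-85583962), a matrix-associated ligand of integrins, had 9.04 FPKM (402 fragments) in shControl and 15.1 FPKM (638 fragments) in shFKBP9. It was 1.67-fold higher, with a log2 ratio of 0.74 and a counting interval from 0.56 to 0.93. CTGF (ENSG00000118523, chr6:131948176-131951373), the connective tissue growth factor whose promoter carries the 3 motif matches shown above, had 6.66 FPKM (282 fragments) in shControl and 10.3 FPKM (412 fragments) in shFKBP9. It was 1.54-fold higher, with a log2 ratio of 0.62 and a counting interval from 0.40 to 0.85. Both genes were higher in shFKBP9 by more than counting error, and both stayed under 2-fold.

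CYR61 and CTGF did not differ from each other in this respect beyond counting error. The log2 ratio of CYR61 exceeded that of CTGF by 0.12, with an interval from -0.17 to 0.41 that holds 0. Among the 11465 genes with at least 1 FPKM in a library and 50 fragments together, 99.3% had a lower log2 ratio than CYR61 and 98.8% a lower one than CTGF. The ratio of CYR61 to YAP1 per length was 0.774 in shControl and 1.29 in shFKBP9, so the order of the target and its coactivator was turned.

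ANKRD1 (ENSG00000148677, chr10:90912096-90921276), a nuclear ankyrin repeat protein of stretched muscle and a standard YAP readout, was at the edge of detection. It had 1 fragment in shControl (0.028 FPKM) and 4 in shFKBP9 (0.118 FPKM). The ratio of 4.22 had a counting interval from 0.417 to 208, so no difference was detectable at this depth. Its promoter window has 2 motif matches, and the gene was close to the limit of detection in both libraries.

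AMOTL2 (ENSG00000114019, chr3:134355874-134375479), an angiomotin that binds YAP at cell junctions and is itself a YAP target, had 11.2 FPKM in shControl (1216 fragments) and 11.1 FPKM in shFKBP9 (1145 fragments). Its log2 ratio was -0.01 with a counting interval from -0.13 to 0.11, or from 0.915-fold to 1.08-fold. The log2 ratio of CYR61 exceeded that of AMOTL2 by 0.75 (interval 0.53 to 0.97) and that of CTGF exceeded it by 0.63 (interval 0.38 to 0.89). The log2 ratios of CYR61 and CTGF therefore lay above that of AMOTL2 by more than counting error.

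Of the coactivators, YAP1 differed little between the libraries and WWTR1 differed more. YAP1 (ENSG00000137693, chr11:102110461-102233423) had 11.7 FPKM in shControl (1332 fragments) and 11.8 FPKM in shFKBP9 (1273 fragments). Its log2 ratio was 0.01 with a counting interval from -0.10 to 0.12. WWTR1 (ENSG00000018408, chr3:149517235-149736714), which encodes TAZ, had 6.98 FPKM in shControl (1063 fragments) and 8.22 FPKM in shFKBP9 (1187 fragments). Its log2 ratio was 0.23 with a counting interval from 0.12 to 0.36, so only the second of the coactivators was higher by more than counting error.

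YAP1 was the more abundant coactivator in both libraries. Per length its level was 1.67 times that of WWTR1 in shControl (interval 1.54 to 1.82) and 1.43 times in shFKBP9 (interval 1.32 to 1.55). The log2 ratio of YAP1 was below that of WWTR1 by a difference of -0.22 (interval -0.39 to -0.06). Summed, the coactivators had 18.7 FPKM in shControl and 1.07 times as much in shFKBP9, and YAP1 held 62.6% and 58.9% of the sum.

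TEAD1 was the leading TEAD factor of these cells. TEAD1 (ENSG00000187079, chr11:12674591-12944483) had 13.3 FPKM in shControl (2479 fragments) and 14.5 FPKM in shFKBP9 (2565 fragments), with a log2 ratio of 0.13 and a counting interval from 0.05 to 0.21. TEAD4 (ENSG00000197905, chr12:2959330-3040673) had 9.48 FPKM in shControl (390 fragments) and 8.72 FPKM in shFKBP9 (340 fragments). Its log2 ratio was -0.12 with a counting interval from -0.34 to 0.09, within counting error. The other factors lay below shControl as well, TEAD3 at 9.75 and 8.76 FPKM (log2 ratio -0.15, interval -0.34 to 0.03) and TEAD2 at 3.67 and 3.26 FPKM (-0.16, -0.47 to 0.14), neither beyond counting error.

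The 4 TEAD genes summed to 36.2 FPKM in shControl and to 35.3 FPKM with FKBP9 knocked down, a ratio of 0.974. The share of TEAD1 in this sum was 36.8% and 41.2%. TEAD1 and TEAD4 differed in their log2 ratios by 0.25 (interval 0.02 to 0.48), but by 0.08 with an interval that held 0 (-0.15 to 0.31) once the medians of genes of like GC content were subtracted. Of the VGLL cofactors, which bind TEAD factors in place of YAP, VGLL3 had 2.80 FPKM in shControl and 3.90 FPKM in shFKBP9 (log2 ratio 0.46, interval 0.33 to 0.63). VGLL4, known to oppose YAP, had 8.07 and 7.69 FPKM (-0.07, -0.20 to 0.06). VGLL2 was under 1 FPKM, at 0.693 and 0.470, and VGLL1 had 0 fragments in both libraries, where 3 fragments, the limit taken for a count of 0, correspond to 0.108 FPKM in shControl and to 0.113 in shFKBP9. Of the 8 TEAD and VGLL genes, 6 had at least 1 FPKM, and their median log2 ratio was -0.09, or 0.00 with GC bin medians subtracted.

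The LATS kinases, the last step of the Hippo cascade, were the least abundant of the genes above 1 FPKM. LATS1 (ENSG00000131023, chr6:149658153-149718256) had 2.40 FPKM in shControl (376 fragments) and 3.32 FPKM in shFKBP9 (493 fragments). It was 1.38-fold higher, with a log2 ratio of 0.45 and a counting interval from 0.27 to 0.67. LATS2 (ENSG00000150457, chr13:20973032-21061547), which is also a YAP target, had 2.96 FPKM in shControl (299 fragments) and 3.45 FPKM in shFKBP9 (330 fragments). Its log2 ratio was 0.21 with a counting interval from -0.01 to 0.45, which holds 0. This call turned with the scaling, since the interval lay above 0 with median ratio scaling (0.01 to 0.47) and with GC bin medians subtracted (0.08 to 0.54). The log2 ratios of LATS2 and LATS1 differed by -0.25, with an interval from -0.55 to 0.06 that holds 0, and by -0.03 (-0.34 to 0.27) with the GC bin medians subtracted. Summed, the kinases had 5.36 and 6.77 FPKM, of which LATS1 held 44.8% and 49.1%.

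Across the 10 genes, the counting interval lay above 0 for 5 (CYR61, CTGF, LATS1, WWTR1 and TEAD1), below 0 for 0, and included 0 for 4. ANKRD1 had too few fragments to be counted. Among all 17105 genes with at least 10 fragments, the interval lay above 0 for 13.8% and below 0 for 16.9%, and among the 12741 genes with at least 1 FPKM these shares were 17.2% and 20.8%. Genes with more fragments pass this limit with smaller differences, and it is no test of the conditions. None of the 10 passed 2-fold in either direction (0 and 0), compared with 2.02% of the 12741 genes that were higher and 2.19% that were lower. All 10 are protein-coding, and of the 10346 protein-coding genes with at least 1 FPKM, 0.213% were past 2-fold higher and 0.193% lower. The median log2 ratio was 0.21 for the 9 genes with at least 1 FPKM and -0.02 for all 12741.

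**Figure D3:**
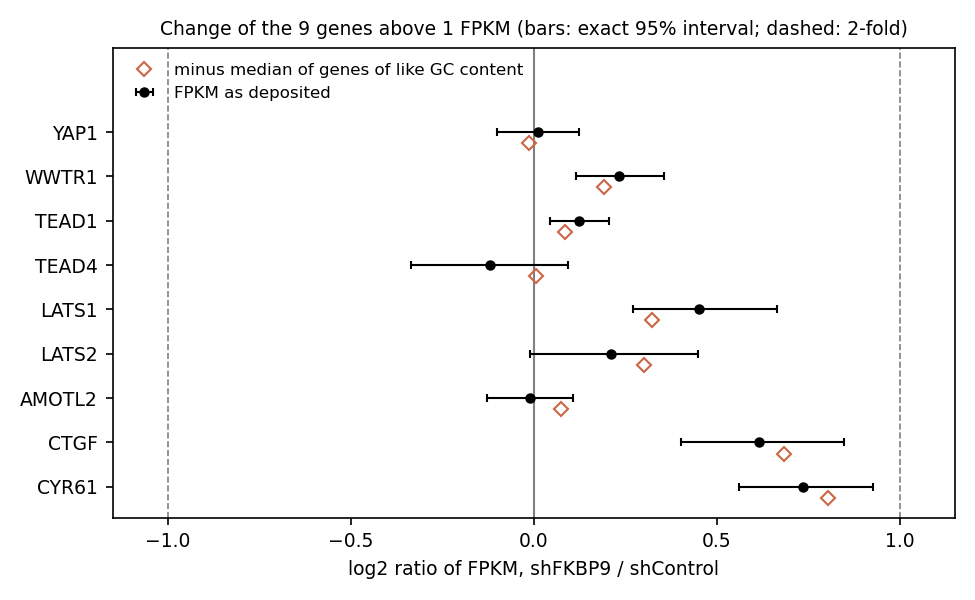
Log2 ratio of FPKM (shFKBP9 over shControl) of the 9 genes with at least 1 FPKM, with exact 95% counting intervals (black) and the value after subtraction of the median of genes of like GC content (open diamonds). CYR61 at 0.74 and CTGF at 0.62 lie farthest from 0, no gene reaches the dashed lines at 2-fold, and the interval of TEAD4 holds 0.

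The log2 ratios of all genes moved with the GC content of their transcripts. Over 12677 genes the Spearman correlation, across genes of the same libraries and thus a description, was -0.37, and the median log2 ratio was 0.15 in the tenth of genes with the least GC and -0.12 in the tenth with the most. The part of GC content in the results was not tested beyond the values given here. The canonical transcript of LATS1 has 39.0% GC, and the median of genes in its bin was 0.13. With this median subtracted, LATS1 was at 0.32, with its interval from 0.14 to 0.54. CTGF with 51.5% GC and CYR61 with 50.5% were in a bin with a median of -0.07 and stood at 0.68 and 0.80 after subtraction. LATS2 then stood at 0.30 (interval 0.08 to 0.54), so that the intervals of 6 genes lay above 0. Among all 12677 genes the share of such intervals was 16.5% above 0 and 14.7% below. TEAD4, with 60.4% GC, changed its sign from -0.12 to 0.01, and YAP1 went from 0.01 to -0.01.

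Genes that overlap the 10 genes had few fragments. The library kit is not stated to keep strand, and 7 of the 10 genes overlap another annotated gene, of which there were 14. The most fragments on any of these were the 13 of WWTR1-AS1 in shControl, with 12 in shFKBP9. AL133346.1, antisense to CTGF, had 4 and 3, and AL358852.1, antisense to LATS1, had 7 and 1. The pseudogenes YAP1P1 and YAP1P2 had 0 fragments in both libraries.

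The Hippo cascade around these genes was described from lists written from general knowledge, with earlier results of these data known. The 7 core kinase and adaptor genes (MST1/2, SAV1, MOB1 and LATS genes) had a median log2 ratio of 0.30, with the counting interval above 0 for 4 and below 0 for 0, compared with 17.2% and 20.8% of all 12741 genes. SAV1, the scaffold of the MST kinases, had 3.92 FPKM in shControl and 5.27 FPKM in shFKBP9 (log2 ratio 0.42, interval 0.23 to 0.62). STK3, which encodes MST2, reached 1 FPKM only in shFKBP9, with 0.986 and 1.27 FPKM. Without it the median of the other 6 was 0.25, with the interval above 0 for 3. These genes had a median GC content of 39.0%, and their median was 0.19 with the GC bin medians subtracted. The interval of STK3 then held 0 (-0.04 to 0.48), that of LATS2 did not, and 4 intervals again lay above 0.

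The kinases that act on LATS beside MST did not follow one direction. Of these 10 genes 9 had at least 1 FPKM, with a median log2 ratio of 0.01, the interval above 0 for 3 and below 0 for 4 (17.2% and 20.8% of all genes). With the GC bin medians subtracted these counts were 1 and 2. MAP4K2 was at the low end, with 3.34 FPKM in shControl and 2.44 FPKM in shFKBP9 (log2 ratio -0.44, interval -0.66 to -0.24), followed by MINK1 with 11.6 and 9.82 FPKM (-0.24, -0.34 to -0.13). Of the whole list of 17 kinase and adaptor genes, 16 had at least 1 FPKM. Their median was 0.15, or 0.11 with at least 1 FPKM required in both libraries, and LATS1 was the highest. With the GC bin medians subtracted, the median of the 16 genes was 0.07, and SAV1 at 0.38 stood above LATS1 at 0.32.

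Scaffolds that feed the cascade from cell junctions lay on both sides of 0. Of 18 genes 13 had at least 1 FPKM, with a median log2 ratio of -0.09, the interval above 0 for 4 and below 0 for 8 (17.2% and 20.8% of all genes). With the GC bin medians subtracted, the intervals of NF2, AMOTL1, SCRIB and FAT1 held 0, which left 4 above and 4 below and a median of -0.05. FRMD6, a FERM protein that activates the cascade, had 9.54 FPKM in shControl and 13.8 FPKM in shFKBP9 (log2 ratio 0.53, interval 0.44 to 0.63), and WWC2, a relative of KIBRA, had 4.43 and 5.08 FPKM (0.19, 0.06 to 0.34). The atypical cadherin FAT4 had 2.19 and 1.56 FPKM (-0.47, -0.67 to -0.31), and WWC3 had 10.6 and 8.14 FPKM (-0.37, -0.50 to -0.26). AMOT, the founder of the AMOTL2 family, had 0 fragments in both libraries, where the limit of 3 fragments corresponds to 0.0195 and 0.0206 FPKM.

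STRIPAK, the phosphatase complex that removes phosphate from MST, had a median log2 ratio of -0.00 over 16 genes, with the interval above 0 for 5 and below 0 for 5 (17.2% and 20.8% of all genes), or 3 and 4 with the GC bin medians subtracted. Its ends were MOB4 with 3.21 FPKM in shControl and 4.37 FPKM in shFKBP9 (log2 ratio 0.43, interval 0.20 to 0.69), STRN3 with 5.75 and 6.92 FPKM (0.26, 0.09 to 0.44), STK24 with 6.40 and 5.17 FPKM (-0.30, -0.42 to -0.19) and STRIP2 with 5.74 and 5.03 FPKM (-0.19, -0.37 to -0.02). The 4 genes for degradation of phosphorylated YAP and TAZ had a median of -0.09 and lay below 0 beyond counting error in 3 cases (20.8% of all genes). They were FBXW11 at -0.23 (interval -0.35 to -0.11), CSNK1E at -0.10 (-0.19 to -0.01), CSNK1D at -0.08 (-0.16 to -0.01) and, within counting error, BTRC at -0.02 (-0.25 to 0.20). With the GC bin medians subtracted 1 of the 4, FBXW11, lay below 0, while the intervals of CSNK1D (-0.05 to 0.09) and CSNK1E (-0.09 to 0.09) held 0.

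A signature of 22 YAP and TAZ target genes was also written from general knowledge, with earlier results of these data known. It shares CTGF, CYR61, ANKRD1, AMOTL2 and LATS2 with the genes above. Of the 22 genes, 18 had at least 1 FPKM, with a median log2 ratio of 0.18, the interval above 0 for 9 and below 0 for 3 (17.2% and 20.8% of all genes), or 12 and 2 with the GC bin medians subtracted. Without the genes already described there were 14, with a median of 0.13, 7 above and 3 below. F3, the tissue factor that starts coagulation, had 40.3 FPKM in shControl and 54.2 FPKM in shFKBP9 (log2 ratio 0.43, interval 0.34 to 0.51), and NT5E, the ecto-nucleotidase CD73, had 55.8 and 70.8 FPKM (0.34, 0.29 to 0.40). AXL, a receptor tyrosine kinase among the most abundant of the list, had 60.4 and 61.8 FPKM (0.03, -0.02 to 0.09), and its interval was 0.07 to 0.18 with the GC bin median subtracted.

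At the low end of the signature was IGFBP3, a binding protein of insulin-like growth factors, with 47.6 FPKM in shControl and 33.7 FPKM in shFKBP9 (log2 ratio -0.50, interval -0.57 to -0.43). DOCK5, an exchange factor for Rac, had 3.75 and 3.43 FPKM (-0.12, -0.25 to -0.00), and its interval held 0 with the GC bin median subtracted (-0.23 to 0.02). FOXF2 had 0 fragments in both libraries, where the limit of 3 fragments corresponds to 0.0676 and 0.0713 FPKM.

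The CCN family, to which CTGF and CYR61 belong as CCN2 and CCN1, was split. Of its 6 genes 5 had at least 1 FPKM, with a median log2 ratio of -0.22. Beside CTGF and CYR61 above 0, the other 3 were lower in shFKBP9 beyond counting error (17.2% and 20.8% of all genes lay above and below). WISP1, the most abundant, had 65.9 FPKM in shControl and 56.8 FPKM in shFKBP9 (log2 ratio -0.22, interval -0.27 to -0.16). NOV had 8.99 and 7.52 FPKM (-0.25, -0.47 to -0.05), and WISP2 had 2.17 and 1.23 FPKM (-0.78, -1.18 to -0.47). WISP3 had 1 fragment in shControl and 0 in shFKBP9.

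CTGF and CYR61 are also known to answer to the actin-regulated factor SRF and its coactivators MRTFA and MRTFB. Genes of that pathway were therefore set beside them. This list was chosen with earlier results of these data known, so its counts are not independent of those results. The part of SRF in the levels of CTGF and CYR61 was not tested. Of 12 listed targets, the counting interval lay above 0 for 10 and below 0 for 1 (17.2% and 20.8% of all genes), with a median log2 ratio of 0.30. With the GC bin medians subtracted these counts were 11 and 0. Many of these genes are abundant, and their intervals are narrow. ACTG2, a smooth muscle actin, had 1.80 FPKM in shControl and 5.72 FPKM in shFKBP9 (log2 ratio 1.62, interval 1.37 to 1.97) and was the only gene of the lists past 2-fold. TAGLN, an actin-binding protein of contractile cells, had 11.9 and 18.5 FPKM (0.63, 0.51 to 0.77). MYL9, ACTA2 and CNN1 stood at 0.62, 0.56 and 0.57, and TPM1 at 0.42. The others were lower, with FHL2 at 0.17, CNN2 and VCL at 0.15, TPM2 at 0.12, ZYX at -0.04 and FLNA at -0.12. Reads of the near-identical actin genes can be split between copies, so the values of ACTG2 and ACTA2 are uncertain.

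The factors of the SRF pathway differed less than TAGLN and ACTG2, the targets with the highest log2 ratios, but not less than all listed targets. As deposited, SRF had 22.6 FPKM in shControl and 22.8 FPKM in shFKBP9 (log2 ratio 0.01, interval -0.09 to 0.11), MRTFB had 2.64 FPKM in both libraries (0.00, -0.14 to 0.15), and MRTFA had 11.7 and 10.3 FPKM (-0.18, -0.30 to -0.07). FLNA, the most abundant gene of the list, had 447 and 411 FPKM (-0.12, -0.13 to -0.11). With the GC bin medians subtracted the interval of SRF lay above 0 (0.04 to 0.23), and those of MRTFA (-0.17 to 0.06), MRTFB (-0.17 to 0.12) and FLNA (-0.02 to 0.01) held 0. The median over all 15 genes was 0.15, and it was 0.25 with the GC bin medians subtracted.

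**Figure D4:**
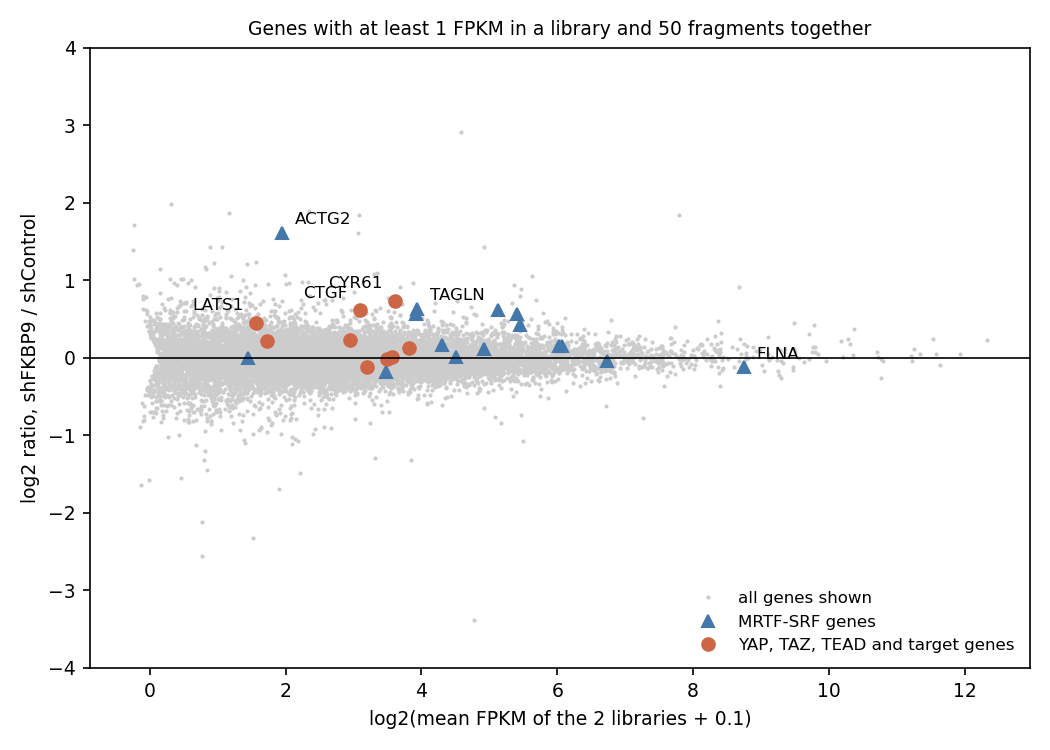
Log2 ratio (shFKBP9 over shControl) against log2 of the mean FPKM plus 0.1 for the 11465 genes with at least 1 FPKM in a library and 50 fragments together (grey), with the 9 genes described here (orange circles) and the MRTF-SRF genes (blue triangles). ACTG2, CYR61, CTGF and LATS1 lie in the upper part of the grey cloud, with 99.9%, 99.3%, 98.8% and 97.2% of the genes below them. The remaining orange circles lie lower within it.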

How the data were processed

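RNA-Seq covered the SF-539 line with control or FKBP9 shRNA, 1 library each. The authors removed adapter, undetermined and low-quality reads, aligned paired-end reads to hg38 with HISAT2 2.0.5 and counted them with featureCounts 1.5.0-p3. The authors deposited FPKM per gene, the unit used here, and the table held 0 further columns of values per library. Fragments were recovered as FPKM times gene length in steps, and 100% of values above 0 were whole within 0.01 fragment. This depth sets the precision. Log2 ratios were computed with 0.1 added to FPKM. Genes needed 1 FPKM in either library for counts past 2-fold and for medians, and 10 fragments together for a counting interval (exact Clopper-Pearson at 95%, conditional odds ratios between genes). No test was possible with 1 library per group. Recovery and intervals were checked on simulated data.

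The genes and lists were chosen with earlier results of these data known. Named are FKBP9, the 10 genes, their overlapping genes, the TEAD, VGLL and CCN families and, of each list, the 2 lowest and 2 highest log2 ratios of genes that passed the 1 FPKM minimum and had 50 fragments together. F3, NT5E, AXL, MYL9, ACTA2, CNN1, TPM1, FHL2, CNN2, VCL, TPM2, ZYX, SRF, MRTFB, STK3, AMOT, FOXF2, NF2, AMOTL1, SCRIB, FAT1, the YAP1 pseudogenes and single cell type markers were named after their values were seen. GC content came from canonical transcripts of GENCODE release 44, matched for 99.5% of genes with 1 FPKM, in 20 bins. Alternatives were other added values, scalings, minimums and intervals. Protein sequences were not used here. Scripts ran under Python 3.11.15 with scipy 1.17.1, pandas 2.3.3 and numpy 2.4.6, and plots were drawn with matplotlib 3.10.9.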

Additional observations from a re-analysis of the deposited data

How the results depend on the processing

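No paired analysis was possible because there was 1 library per group. The log2 ratios of the 10 genes stayed within their counting intervals under the alternatives run (other values added to FPKM, median ratio scaling, TPM, fragments summed with overlapping genes, and GC bin centring, which was chosen after seeing the data). CYR61 ranged from 0.68 to 0.80, CTGF from 0.56 to 0.68 and LATS1 from 0.32 to 0.47. ANKRD1, with its few fragments, ranged from 0.12 with 1 added to 1.75 with 0.01 added. The signs of YAP1, AMOTL2 and TEAD4 changed among them, within counting error. The number of the 10 genes above counting error was 5 with a 99% interval, 6 with median ratio scaling and 6 with GC bin centring. The log2 ratio of FKBP9 was -3.16 with 1 added to FPKM. Of all genes, 258 were past 2-fold higher and 279 lower. With 1 added there were 138 and 153, and without a minimum 2022 and 1993. A minimum of 1 FPKM in each library left 40 and 41, and protein-coding genes alone gave 22 and 20, where fewer genes were counted. The median of the 4 degradation genes went from -0.09 to -0.015 with GC bin centring, which also left 1 of 3 of them below counting error, and that of the TEAD and VGLL genes went from -0.09 to 0.00. The median of the STRIPAK genes, -0.00, was 0.01 with median ratio scaling. Why these values moved was not tested. Depth limits ANKRD1, VGLL1, AMOT and FOXF2, and what lies beyond counting error cannot be told apart from variation between cultures or libraries.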
